A study of Oryza sativa with 12 samples.

Results

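The 41 genes described here are rice genes with lower transcript levels after chilling before dawn and nearly equal levels with and without chilling before dusk. They were chosen from 40424 identifiers by their counts. Counts were divided by median-of-ratios size factors, and the log2 of the group mean plus 1, called M, was taken. Genes were kept with a largest M of at least 8, a difference between CT24 and NT24 (called b) of at most -2, and a difference between CT12 and NT12 (called a) under 0.5 in size. The members were therefore picked on these libraries, and their responses to chilling are a description, with no test. The name "repressed only at dawn" holds by this rule, and further measurements given below show how far it held outside it.

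The libraries came from above-ground parts of seedlings of rice cultivar 93-11 (Oryza sativa ssp. indica) at the 3-leaf stage, grown for about 10 days at 28 °C under days split evenly into 12 h with and 12 h without light. CT24 seedlings spent the last 4 h before harvest, from ZT20 to ZT24, at 13 °C, while NT24 seedlings stayed at 28 °C and were harvested at ZT24. CT12 seedlings were at 13 °C from ZT8 to ZT12, and NT12 seedlings at 28 °C were harvested at ZT12. ZT is Zeitgeber time, in hours from lights-on, so ZT12 is dusk and ZT24 is dawn. Each group had 3 biological repeats of 5 plants, all harvested on day 11, and the labels leave unstated whether the lamps kept their schedule at 13 °C. On the growth schedule, ZT8 to ZT12 falls in the light and ZT20 to ZT24 in the dark. If the lamps kept it, the hour of chilling and the light during chilling cannot be told apart. Every library title carried the mark WT (wild type). Total counts ran from 42966604 to 52762123 per library. The identifiers could not be paired with gene names, so the tissue was not checked against marker genes, and no role is given to any member. In these bulk libraries, fewer cells of a type and less RNA per cell cannot be told apart.

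Plants hold a circadian clock in which morning-expressed and evening-expressed transcription factors repress one another. It lets many genes rise ahead of dawn or dusk, before the light changes. The same clock gates responses to cold, which means that the size of a response depends on the hour at which the cold arrives, and low temperature in turn changes the rhythms of many clock-controlled genes. Rice is a warm-season crop that is damaged by temperatures well above freezing.

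Together, the 41 genes were several-fold less abundant in chilled than in unchilled seedlings at dawn, and their level in chilled seedlings at dawn was close to or below that of seedlings at dusk. Levels are given as counts scaled to library size (CPM) after adjusting the library sizes by trimmed means of M values (TMM). The summed level of the genes was 305, 286 and 247 CPM in the 3 CT24 libraries, against 1350, 1383 and 1542 CPM in the NT24 libraries. It was 473, 283 and 421 CPM in CT12, against 473, 373 and 350 CPM in NT12. The NT24 libraries stood above all other libraries, the CT24 libraries overlapped with CT12 and lay below NT12, and the CT12 and NT12 libraries overlapped. The 2 most abundant genes held 39.2% of the summed NT24 level, and without them the sum was 139 to 186 CPM in CT24, against 735 to 981 CPM in NT24.

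Single genes spanned a wide range of levels. Over the 41 genes, the group mean had a median of 2.93 CPM in CT24 (0.255 to 69.2), against 15.04 CPM in NT24 (4.20 to 289). The median was 4.88 CPM in CT12 (0.0295 to 52.7), against 5.72 CPM in NT12 (0.0415 to 43.6). NT24 was the group with the largest M for 38 of the 41 genes. The smallest M was that of CT24 for 25 genes, of CT12 for 11 and of NT12 for 5. The level in CT24 was 19.7% of that in NT24 at the median, with a range from 4.55% to 24.3%, and 4 genes kept less than 10% of it. Since the rule demanded a 4-fold fall, the upper end of that range was set by the rule.

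**Figure D1:**
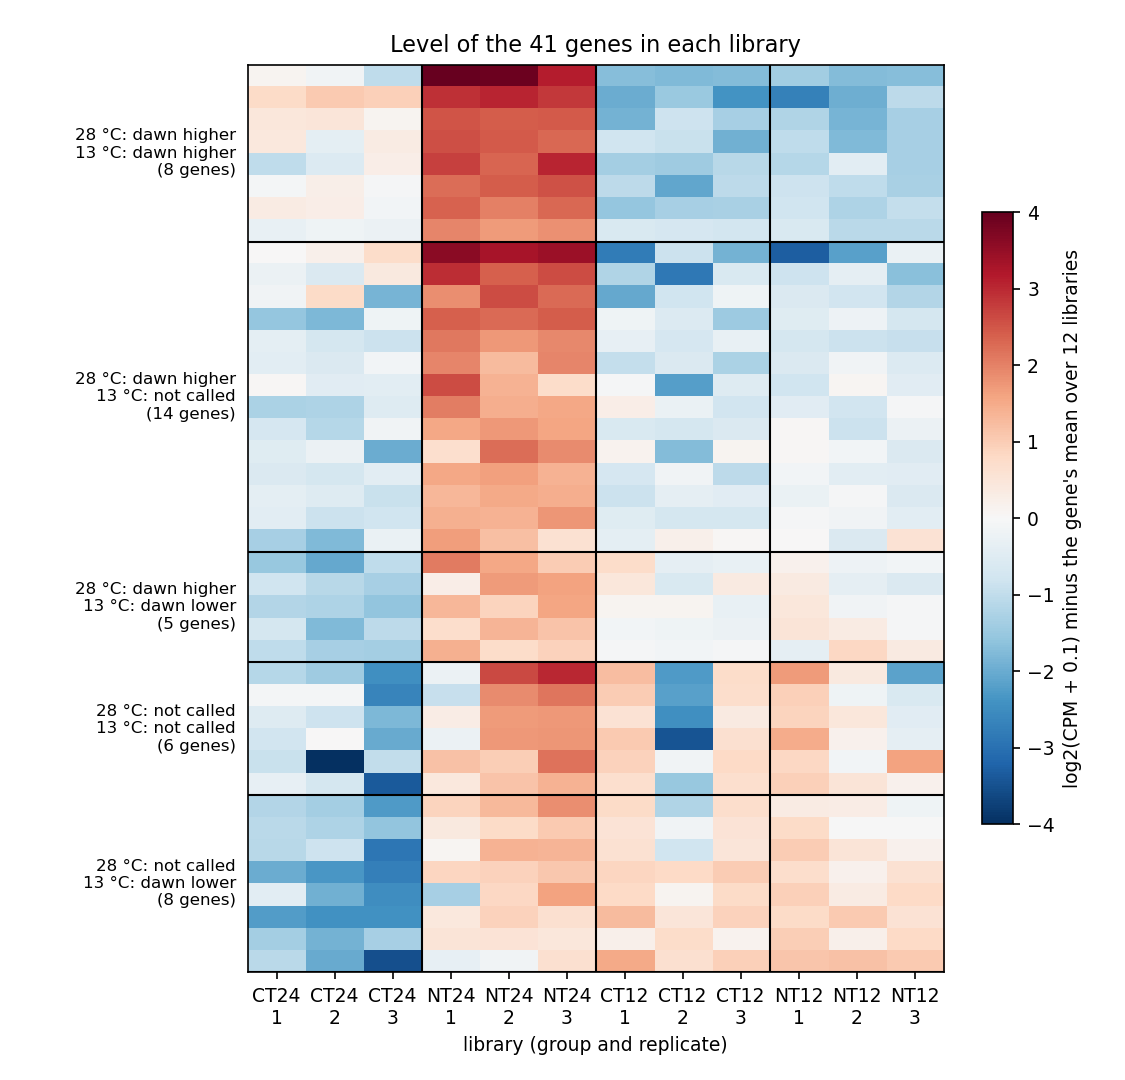
Level of each of the 41 genes (rows) in each of the 12 libraries (columns, by group and replicate), as log2(CPM + 0.1) minus the gene's mean over the 12 libraries. Rows are grouped by the calls for dawn against dusk at each temperature (8, 14, 5, 6 and 8 genes from top to bottom). In the 8 rows at the top the NT24 mean is the highest and the CT24 mean is also above both dusk means, and in the 8 rows at the bottom the CT24 mean is the lowest.

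All 41 genes passed the expression filter and entered edgeR's quasi-likelihood fit over 24700 genes, with Benjamini-Hochberg adjustment over all of them and an adjusted p below 0.05 for a call. In CT24 against NT24, 39 of the 41 were called lower, where 20.2% of all genes tested were, and nothing is read from this count because the rule used the contrast. The median log2 change of the members was -2.34 (-4.45 to -2.04), and that of all genes was -0.0035. In 38 members all 3 CT24 libraries lay below all 3 NT24 libraries, as they did for 28.1% of all genes.

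The 3 members without such a separation were looked up after their values were seen. OsR498G0306294500.01 had 3.48, 1.17 and 0.762 CPM in CT24, against 1.79, 8.38 and 14.4 CPM in NT24. OsR498G0612054100.01 had 23.4, 23.4 and 3.92 CPM in CT24, against 13.1, 92.6 and 111 CPM in NT24. OsR498G1120085200.01 had 1.40, 2.49 and 0.534 CPM in CT24, against 2.09, 8.42 and 8.55 CPM in NT24. In each, NT24 replicate 1 was the lowest of its group and lay below at least 1 chilled library. OsR498G0612054100.01 and OsR498G1120085200.01 were the members not called, with edgeR adjusted p of 0.0925 and 0.108.

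At ZT12, where the rule bounded the response on its own scale, the median log2 change in CT12 against NT12 was -0.21 (-0.54 to 0.40), against -0.02 over all genes. No member was called by edgeR, where 44.9% of all genes were called in one direction or the other. At an unadjusted p below 0.05, edgeR had 1 member higher and 2 lower. DESeq2 called 1 higher at its adjusted p and limma-voom called none.

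This flat response at dusk depended on how libraries were scaled. In raw shares of the total count, the genes together took 0.0347%, 0.0247% and 0.0317% of the CT12 libraries, against 0.0626%, 0.0504% and 0.0458% of the NT12 libraries, with no overlap. For ZT24 the shares were 0.0297%, 0.0274% and 0.0245% in CT24, against 0.128%, 0.143% and 0.150% in NT24. Scaling by total counts moved the median log2 change in CT12 against NT12 to -0.77 over all genes and to -0.99 over the members, of which 16 were then called lower (edgeR). Upper-quartile scaling moved these medians to -0.31 and -0.50 and called 6 members lower. The shares of all genes called lower under these 2 scalings were not computed, so nothing is read from the counts of 16 and 6. The median of the members thus lay below that of all genes by a similar small amount under each of these scalings. In CT24 against NT24 the medians under total counts were -0.02 over all genes and -2.38 over the members.

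**Figure D2:**
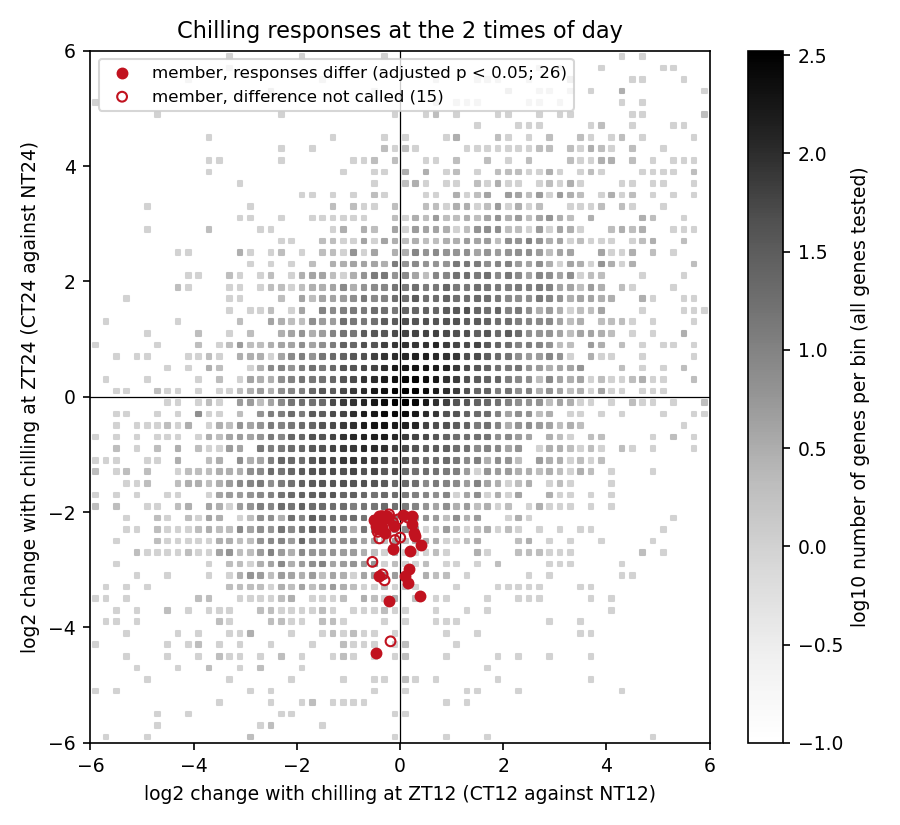
Fitted log2 change with chilling at ZT24 (vertical) against that at ZT12 (horizontal). Grey squares count all genes tested per bin on a log10 scale. Red circles are the 41 genes, filled for the 26 whose responses differed at an edgeR adjusted p below 0.05 and open for the other 15; they form a narrow column at median values of -0.21 (ZT12) and -2.34 (ZT24), which is where the rule placed them.

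The response to chilling at ZT24 was more negative than that at ZT12 in 26 of the 41 genes (interaction term, edgeR's quasi-likelihood test), where 13.0% of all genes were called in this direction. The rule fixed this difference as well, so the count is a description. It leaves 15 members for which a smaller fall at dusk is not shown. The median difference was -2.25 (-4.06 to -1.64).

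Most of the genes were called higher at dawn than at dusk at normal temperature. In NT24 against NT12, 27 of the 41 were called higher (23.2% of all genes tested) and none lower (20.9%). No member was lower at an unadjusted p below 0.05 in edgeR either, DESeq2 called none lower and limma-voom called 1. Of the 27, 25 were at least 2-fold higher, where 12.6% of all genes were. The median log2 difference was 1.75 (-1.01 to 7.0), against 0.04 over all genes. This contrast was no part of the rule, but both of its groups entered the rule, and a gene high in NT24 by chance was more likely to be chosen. The floor of 8 on the largest M also favoured genes high in NT24. Members that reached 8 only in NT24 had to be higher there than in NT12. OsR498G0511179700.01 was such a member, with an M of 8.01 in NT24, against 1.55 in NT12. The count of 27 is therefore partly a product of the choice. In CT24 against NT24 and in NT24 against NT12 the same NT24 libraries stand on opposite sides.

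Under chilling, the same genes were called in both directions, as genes at large were. In CT24 against CT12, 8 were called higher (19.5%, against 20.3% of all genes), 13 lower (31.7%, against 21.8%) and 20 in neither direction. The share called higher was near that of all genes, so nothing is read from it. The median log2 difference was -0.77 (-3.40 to 3.12). Under total-count scaling the split was 11 higher and 9 lower, and the median of all genes moved to 0.34. The shares of all genes called under that scaling were not computed. The difference at 13 °C equals that at 28 °C plus b minus a, so the shift between the temperatures was set by the rule, and what the rule did not set is where each gene started.

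**Figure D3:**
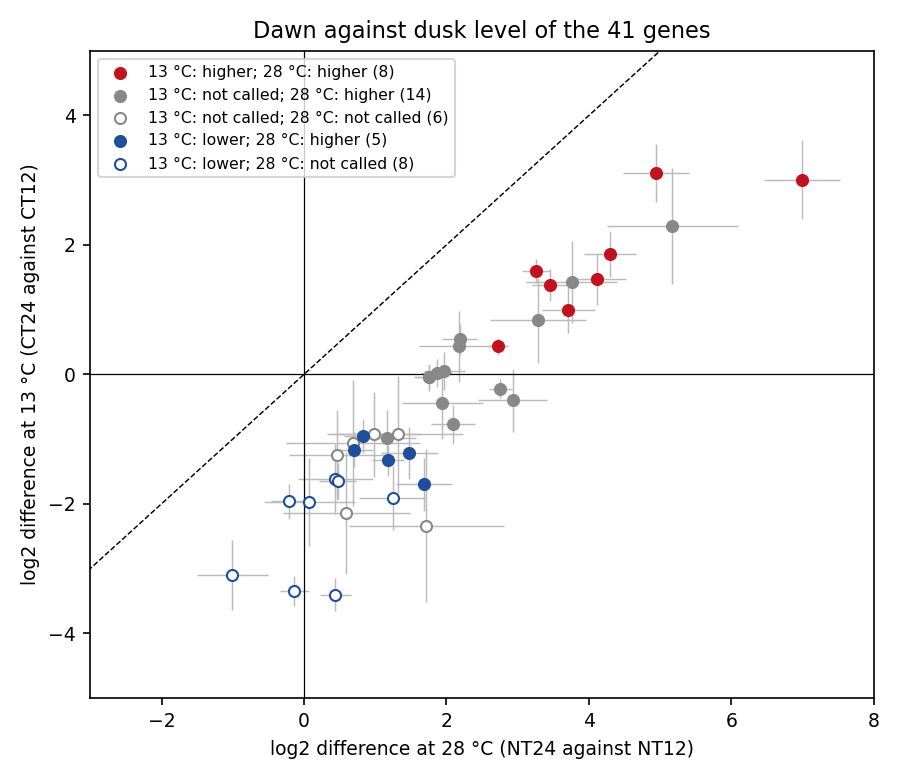
Log2 difference between dawn and dusk at 13 °C (vertical) against that at 28 °C (horizontal) for the 41 genes, with standard errors from the edgeR fit. Filled circles were called higher at dawn at 28 °C (27 genes) and open ones were not called (14); colour gives the call at 13 °C. The dashed line marks equal differences, and every gene lies below it, as the rule required.

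By their calls at each temperature, the genes were sorted into 5 profiles for description. The share of all genes in each profile was not computed, and a gene not called is not thereby shown to be level. In the first, 8 genes were higher at dawn at both temperatures. Their median level was 3.14 CPM in CT24, against 19.5 CPM in NT24, and 0.968 CPM in CT12, against 1.21 CPM in NT12. Their dawn rise was smaller after chilling, with a median log2 difference of 1.53 at 13 °C, against 3.91 at 28 °C, and in all 8 the CT24 mean stayed above both dusk means.

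The second and commonest profile held 14 genes that were higher at dawn at 28 °C and not called at 13 °C. Their median level was 3.03 CPM in CT24, against 13.6 CPM in NT24, and 3.12 CPM in CT12, against 4.07 CPM in NT12. The CT24 mean lay below both dusk means in 6 of them, above both in 5 and between them in the rest. The median log2 difference was -0.02 at 13 °C, against 2.13 at 28 °C.

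In the third profile, 5 genes were higher at dawn at 28 °C and lower at dawn at 13 °C, with median log2 differences of -1.21 at 13 °C and 1.18 at 28 °C. They had a median of 3.33 CPM in CT24, against 17.7 CPM in NT24, and 7.10 CPM in CT12, against 8.88 CPM in NT12.

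The remaining 14 genes showed no called difference between dawn and dusk at 28 °C. Of these, 8 were lower at dawn at 13 °C, with a median of 1.85 CPM in CT24, against 11.6 CPM in NT24, and 7.71 CPM in CT12, against 8.12 CPM in NT12. The last 6 were called at neither temperature. In all 14 the CT24 mean was below both dusk means.

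Single genes show these profiles library by library. Those named were picked by size within a comparison, and the files do not pair them with names. OsR498G0306418600.01 was the most abundant member at dawn, with 66.04, 73.0 and 68.6 CPM in CT24, against 313, 263 and 291 CPM in NT24. It had 53.4, 51.1 and 49.1 CPM in CT12, against 53.5, 38.9 and 38.5 CPM in NT12. The chilled dawn libraries lay between the other groups, below NT24 and above every dusk library. Chilling at ZT24 changed it by -2.06 on the log2 scale (SE 0.14, edgeR adjusted p = 1.13e-06), just past the limit of the rule.

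OsR498G0511179700.01 had the largest fitted fall with chilling at dawn and was almost absent at dusk. It had 0.365, 0.287 and 0.114 CPM in CT24, against 6.67, 6.46 and 3.71 CPM in NT24, which is -4.45 on the log2 scale (SE 0.45, edgeR adjusted p = 1.90e-05). The dusk groups rested on 3 counts over the CT12 libraries and 8 counts over the NT12 libraries. It was also the member with the largest dawn rise at 28 °C, a log2 difference of 7.0 in NT24 against NT12 (SE 0.53, edgeR adjusted p = 9.15e-07). At 13 °C it had 37 counts in CT24, against 3 in CT12, 8.58 times the scaled level, with exact 95% bounds of 2.72 and 43.5 for counting error alone. That rise was called by edgeR (adjusted p = 0.00204) and not by limma-voom (adjusted p = 0.101), with adjusted p from 0.000582 to 0.101 over 20 alternatives.

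A second dawn-high gene, OsR498G0815297600.01, had 1.05, 1.21 and 1.79 CPM in CT24, against 13.8, 11.2 and 12.0 CPM in NT24. It had 0.0635, 0.532 and 0.210 CPM in CT12, against 0.0158, 0.152 and 0.848 CPM in NT12. The dusk libraries of each temperature differed by several-fold among themselves, and all lay below the chilled dawn libraries. Its log2 difference in NT24 against NT12 was 5.17 (SE 0.92, edgeR adjusted p = 0.000719), and leaving out single libraries gave values from 4.54 to 7.07.

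For OsR498G0917019900.01 a large dawn rise was kept under chilling. Its level was 2.92, 3.59 and 3.35 CPM in CT24, against 13.4, 14.5 and 12.6 CPM in NT24. At dusk it was 0.349, 0.532 and 0.240 CPM in CT12, against 0.174, 0.364 and 0.771 CPM in NT12. The 4 groups did not overlap except for the dusk pair. In CT24 against CT12 its log2 difference was 3.12 (SE 0.45, edgeR adjusted p = 0.000191), the largest such rise among the members.

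The opposite profile, low in a single group, was shown by OsR498G0612317500.01. It had 0.810, 0.617 and 0.438 CPM in CT24, against 6.41, 6.66 and 7.41 CPM in NT24. Dusk levels were 6.41, 6.17 and 7.23 CPM in CT12, against 5.74, 3.96 and 5.40 CPM in NT12. The 9 other libraries thus lay well above the 3 chilled dawn libraries, with a log2 difference in CT24 against CT12 of -3.40 (SE 0.25, edgeR adjusted p = 1.03e-06). OsR498G0916886400.01 had the same shape, with 2.21, 1.92 and 1.92 CPM in CT24, against 14.7, 20.7 and 16.9 CPM in NT24. It had 25.9, 15.2 and 20.6 CPM in CT12, against 18.6, 22.6 and 16.3 CPM in NT12, so that its other 3 groups overlapped. Its log2 difference in CT24 against CT12 was -3.35 (SE 0.23, edgeR adjusted p = 5.69e-07).

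**Figure D4:**
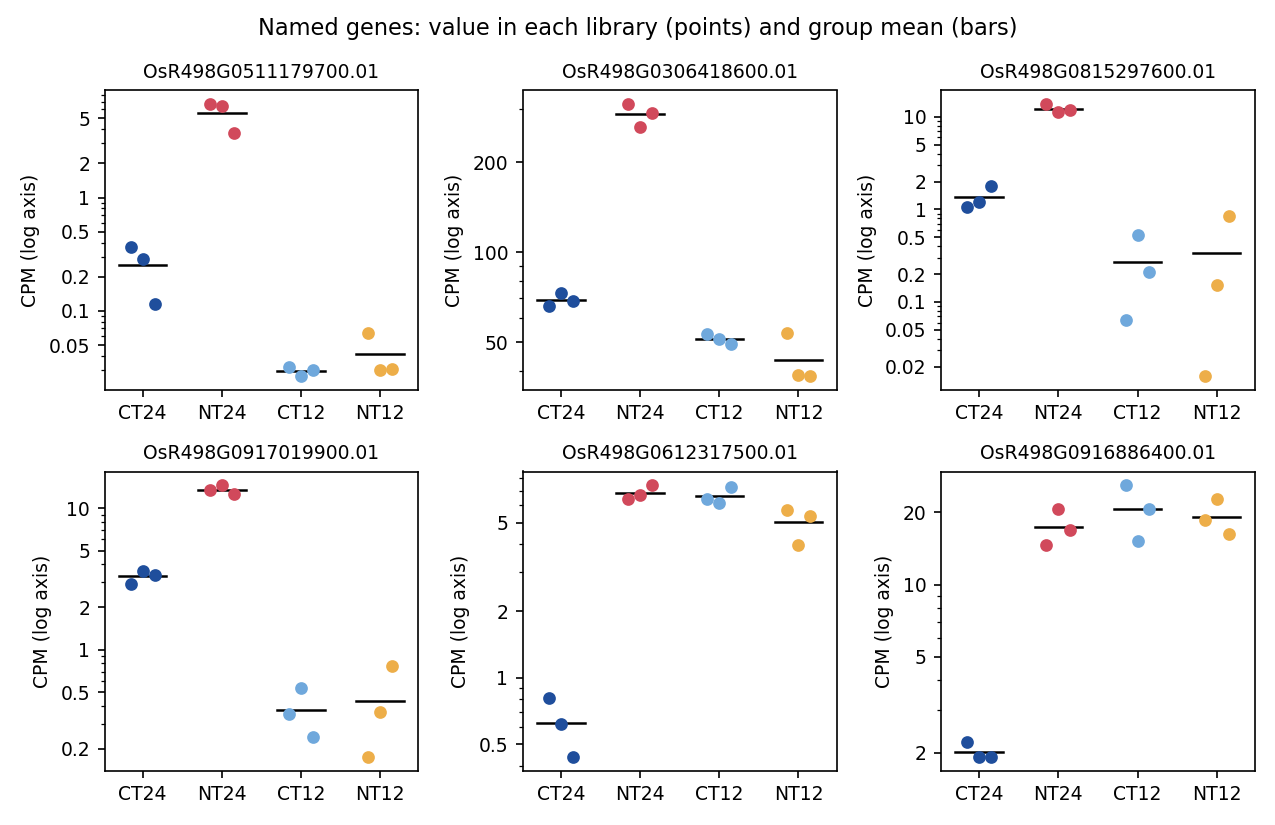
CPM of the 6 genes named by size in each library (points, log axis) with group means (bars), in CT24, NT24, CT12 and NT12 from left to right. In the upper row and in OsR498G0917019900.01, NT24 stands above the other groups; in OsR498G0612317500.01 and OsR498G0916886400.01, CT24 stands below them.

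Libraries of a group differed more in these genes than in expressed genes at large. Over the 3 libraries of a group, the SD of log2 CPM had a median over members of 0.47 in CT24, 0.34 in NT24, 0.51 in CT12 and 0.36 in NT12. Over the 16290 genes with a largest M of at least 8 the medians were 0.16, 0.16, 0.25 and 0.16, in the same order of groups. An SD over 1 in at least 1 group was found for 15 of the 41 genes and for 6.72% of those 16290 genes. Of those 15 genes, 13 were called lower in CT24 against NT24 and 1 was called lower in the interaction (edgeR), where 20.2% and 13.0% of all genes were. A wide spread makes a call less likely, so these counts partly reflect how the 15 genes were picked. The members were also less abundant, since the 16290 genes had a median of 21.0 CPM in CT24, 19.98 in NT24, 21.7 in CT12 and 19.0 in NT12. How far the level accounts for the wider spread was not tested.

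The spread was concentrated in particular libraries. CT12 replicate 2 was more than 2-fold below both other CT12 libraries for 11 members (26.8%, against 4.14% of the 16290 genes). CT24 replicate 3 was so for 9 members (21.9%, against 1.56%) and NT24 replicate 1 for 8 (19.5%, against 1.28%), while no other library was so for more than 2. Of the 11 genes low in CT12 replicate 2, 6 were also low in CT24 replicate 3 and 6 in NT24 replicate 1. In all, 16 members were low in at least 1 of these 3 libraries and 5 in all 3. Among those 16, 14 were called lower in CT24 against NT24, 4 in the interaction and 7 higher in NT24 against NT12 (edgeR). Among the other 25 members the counts were 25, 22 and 20, and the shares of all genes were 20.2%, 13.0% and 23.2%. The 16 were picked for values far apart within a group, which makes a call less likely, so this contrast was partly built in. With the 3 libraries left out together, a choice made after seeing these values, all 41 members were called lower in CT24 against NT24, 35 in the interaction, and 30 higher in NT24 against NT12 (edgeR), where the shares of all genes were 20.1%, 15.1% and 23.9%. The 3 libraries were picked for standing apart in these members, so larger counts without them were partly built in and nothing is read from them. In CT12 against NT12 the members' log2 changes without these libraries ranged from -1.31 to 0.63, with 1 called higher and 2 lower. The rule applied to the remaining 9 libraries gave 47 genes, of which 24 were among the 41.

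The rule was applied again with 1 replicate number left out of every group, and the genes chosen were then measured in the 4 libraries left out. A single library per group is a noisier measure than a mean of 3. Without replicate 1 the rule chose 78 genes, 26 of them among the 41. Their median b was -0.86 in the libraries left out, against -2.51 in those used, and b was below 0 for 64 of the 78 (44.5% of the expressed genes). Without replicate 2 it chose 53 genes, 25 of them among the 41. Their median b was -2.18 in the libraries left out, against -2.21 in those used, and b was below 0 for all 53 (44.2%). Without replicate 3 it chose 41 genes, of which 20 were among the original 41. Their median b was -2.06, against -2.38, and b was below 0 for 36 of the 41 (46.9%). A fall at dawn was thus seen for most of the chosen genes in the libraries left out, at a smaller size where replicate 1 was left out. The rule's limit of -2 on b was met there by 20 of 78, 33 of 53 and 22 of 41 genes. Among expressed genes 2.67%, 2.60% and 3.54% met it. The libraries left out still entered the size factors, which were computed over all 12 libraries.

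The flat response at dusk did not carry over to the libraries left out when these were replicate 2 or replicate 3. In the libraries left out, a lay within 0.5 of 0 for 42 of 78 genes without replicate 1, for 11 of 53 without replicate 2 and for 15 of 41 without replicate 3. Among expressed genes the shares were 41.9%, 41.9% and 43.9%. The chosen genes were thus within 0.5 more often than expressed genes without replicate 1, and less often without replicate 2 or 3. Median a was 0.08, -0.94 and -0.52 in these 3 settings. The dawn rise at 28 °C, read in the same way, was above 0 for 38 of 78 genes, 45 of 53 and 32 of 41 (52.2%, 52.5% and 53.7% of expressed genes). The share of genes with a rise was above that of expressed genes without replicate 2 or 3, and below it without replicate 1.

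**Figure D5:**
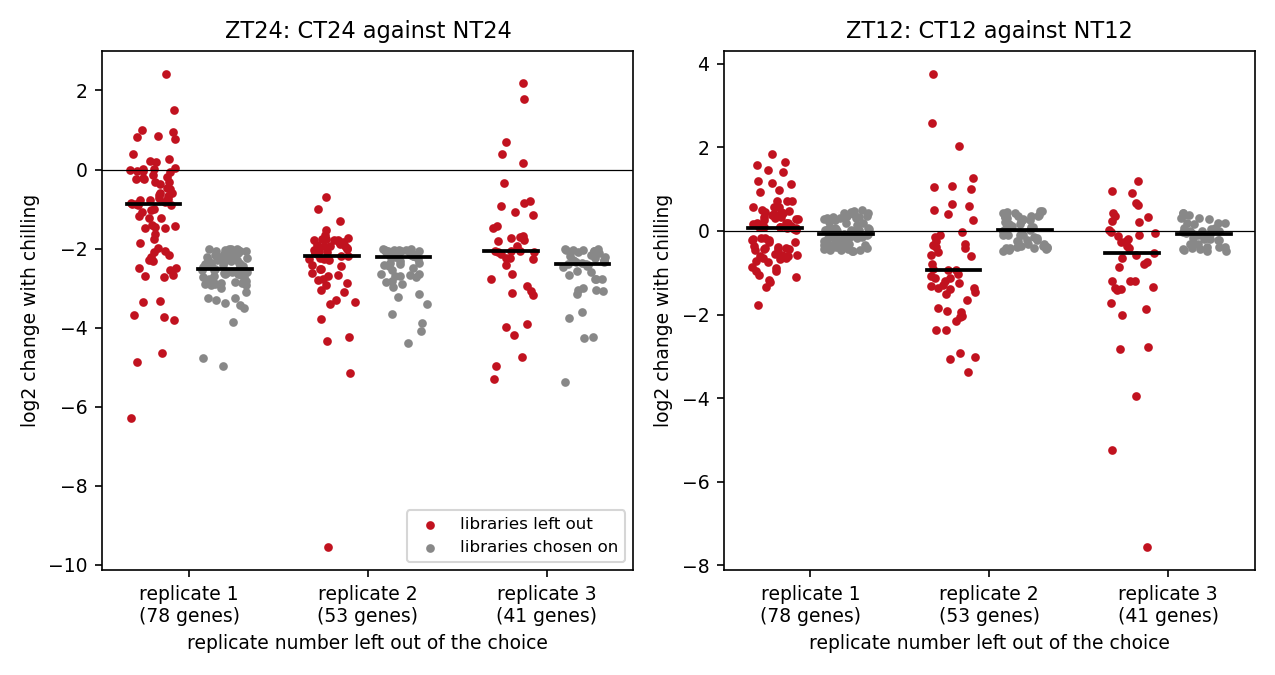
Log2 change with chilling at ZT24 (left) and ZT12 (right) for genes chosen without 1 replicate number (78, 53 and 41 genes). Red points are values in the libraries left out, grey points those in the libraries used for the choice, and bars are medians. At ZT24 the medians left out are -0.86, -2.18 and -2.06, and at ZT12 the red points scatter far beyond the bound of 0.5 that holds for the grey ones.

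Membership near the limits of the rule was close. The members nearest to the limit had b of -2.02, -2.04 and -2.04, and the nearest genes outside had -1.99, -1.99 and -1.98; 12 members had b above -2.1. For negative a, members reached -0.49 and the nearest genes outside began at -0.52. For positive a, members reached 0.41 and the nearest outside began at 0.51. The lowest largest M among members was 8.01, and the nearest outside had 7.98. With each of the 12 libraries left out in turn, 8 members met the rule every time, 25 met it in 9 to 11 settings and 8 in fewer. OsR498G0612317500.01 and OsR498G0916886400.01 were among the 8 that met it every time.

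Scaling decided much of the membership. With total counts in place of size factors the rule gave 23 genes, of which 4 were among the 41. All 41 still met the limit on b, but a had a median of -0.93 and only 4 lay within 0.5. Upper-quartile scaling gave 44 genes, 24 of them shared, whereas TMM-scaled library sizes gave 43 that included all 41.

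Similar sets chosen on the same libraries had other daily profiles at 28 °C. The mirror rule, a at most -2 and b under 0.5 in size, gave 39 genes repressed at dusk and not at dawn. A limit of -2 on both gave 97 genes repressed at both times. In NT24 against NT12, the 41 dawn-repressed genes had 65.9% called higher and 0 lower (median log2 difference 1.75). The 39 dusk-repressed genes had 20.5% higher and 35.9% lower (median -1.15), and the 97 genes repressed at both times had 39.2% higher and 10.3% lower (median 0.60). Each set was chosen on libraries that this contrast uses, and the difference between the sets was not tested. The dawn rule favoured genes high in NT24 and the mirror rule genes high in NT12. The choice itself thus pulled these 2 sets in opposite directions in this contrast. Within-group SDs were wide in the mirror set as well, with medians of 0.44 in CT24, 0.33 in NT24, 0.64 in CT12 and 0.43 in NT12. In the 97 genes repressed at both times the medians were 0.42, 0.22, 0.49 and 0.27, in the same order. These too lay above the medians of the expressed genes, so a wide spread was not particular to the 41 genes.

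Of the 41 identifiers, 3 (7.32%) belonged to the numbered series of the type Novel00354, against 2.78% of the 16290 expressed genes. The files do not explain this series. Novel00354 was called higher at dawn at both temperatures, with log2 differences of 1.00 in CT24 against CT12 and 3.71 in NT24 against NT12 (edgeR adjusted p = 0.0409 and 8.69e-06). Novel00046 had 1.90 ± 0.723 CPM in CT24, against 15.04 ± 5.15 CPM in NT24 (SD, n = 3). Novel01297 was the member with the lowest log2 difference in NT24 against NT12, -1.01, which was not called (edgeR adjusted p = 0.126). It had 0.964 ± 0.761 CPM in CT24, against 4.20 ± 1.66 CPM in NT24, and 8.26 ± 2.59 CPM in CT12, against 8.47 ± 0.324 CPM in NT12.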

How the data were processed

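RNA was measured in 12 libraries, 3 in each of 4 groups. The authors deposited raw whole-number counts per gene, 1 column per library, and per the submitters' processing notes HISAT2 2.0.4 was used. Not given in the labels or file are the counter, the genome build, its annotation and the strand setting, which leaves the reads of near-identical or overlapping genes uncertain. Of the 40424 identifiers, 0 matched the reference gene table, so the gene lists written by name had no member and no sequence is shown.

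The fit used edgeR 4.0.16 (R 4.3.3): expression filter (minimum count 10, minimum total 15; 24700 genes kept, with 99.98% of counts), TMM scaling, and a quasi-likelihood fit with 1 mean per group, no block and 8 residual degrees of freedom. P-values were Benjamini-Hochberg adjusted over all genes within each of 5 comparisons, and SEs came from the F statistic. The fit was tested on simulated data. Log2 CPM used a prior count of 2. DESeq2 1.42.0 and limma 3.58.1 (voom) were alternatives. Libraries of a group differed far beyond sampling noise (chi-square per gene 25.5 to 139), so none was merged. With repeats of pooled plants, p-values measure the spread between these libraries.

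Named genes were those with the lowest CT24-against-NT24 change and the highest NT24 level, and the 2 largest called, non-overlapping rises and falls between dawn and dusk at each temperature. No member was called lower in NT24 against NT12 or called at all in CT12 against NT12, so those parts named none. The members, mirror sets and rules were chosen with earlier results of these data known.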

Additional observations from a re-analysis of the deposited data

Results flagged for a closer look

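The response to chilling differed between ZT24 and ZT12 in 26 of the 41 genes (interaction term, edgeR's quasi-likelihood test), being more negative at ZT24. In this direction 13.0% of all genes tested were called, and the choice of the genes fixed the sign. Among the genes named by size, the difference in log2 response, ZT24 minus ZT12, was -3.99 for OsR498G0511179700.01 (edgeR adjusted p = 0.0138), which rests on 3 counts over the CT12 libraries. It was -2.29 for OsR498G0306418600.01 (edgeR adjusted p = 8.60e-06), -3.84 for OsR498G0612317500.01 (edgeR adjusted p = 1.18e-05) and -3.21 for OsR498G0916886400.01 (edgeR adjusted p = 2.24e-05).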

How the results depend on the processing

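In all 20 alternatives, members called lower in CT24 against NT24 (35 to 41), called in the interaction (22 to 35), called higher in NT24 against NT12 (23 to 30) and called either way in CT24 against CT12 stayed within 1.5 times the reported counts. The number of genes that met the rule was 36 to 60 with 1 library left out and 23 under total-count scaling. Of the 41 genes, counts called higher in CT12 against NT12 were 1 with DESeq2, RLE size factors, or 3 libraries left out together, and 0 to 1 with 1 library left out. Counts called lower there were 16 under total counts, 6 under upper-quartile scaling, 2 with the 3 libraries left out together and 0 to 2 with 1 library left out. In NT24 against NT12, 1 member was called lower by limma-voom, 2 under total counts, and 0 to 1 with 1 library left out. For most of these alternatives the shares of all genes called were not computed. The cause of the scaling dependence was not tested.

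Replicate numbers did not pair the libraries: 4 of 18 same-numbered pairs had deviations correlated over 0.1 (r from -0.44 to 0.29). Over all genes tested, some differently numbered libraries shared deviations, among them the 3 libraries that were low for many members. NT24 replicate 1 had r of 0.44 with CT12 replicate 2 and 0.30 with CT24 replicate 3, and the latter 2 had 0.31. Other such pairs reached 0.43 (NT12 replicate 1 with NT24 replicate 3) and -0.43 (NT24 replicate 3 with CT12 replicate 2). The source of these shared deviations was not tested. With the replicate number as a block, 1 member was called higher in CT12 against NT12, 38 were called lower in CT24 against NT24 and 26 in the interaction. Genes with 3 to 8 counts in a group are limited by depth.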
